A study of Mus musculus with 18 samples.

Results

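The primitive streak and early mesoderm regulators are 10 genes taken by symbol from the 55487 genes counted: the transcription factors T (brachyury), Eomes, Mixl1, Gsc, Evx1, Lhx1 and Mesp1, and the secreted ligands Wnt3, Wnt3a and Fgf8. All 10 were counted, and each passed the filter of 10 counts summed over 18 libraries, which 25318 genes passed. RNA was sequenced from the mouse embryonic stem cell line ES-E14TG2a, kept as mESCs in serum with LIF (0 hr) or differentiated as embryoid bodies (EBs), aggregates in suspension in a serum medium without LIF, for 48 hr or 96 hr. At every stage the labels give 3 IκBα-WT (IkappBalpha+/+) and 3 IκBα-KO (IkappBalpha-/-) libraries, and IκBα, encoded by Nfkbia, is the inhibitor that retains NF-κB in the cytoplasm. Per the study's methods, KO lines were edited with CRISPR-Cas9 in the first exon of Nfkbia, WT lines received non-targeting scrambled guides, and every line was grown from a single sorted cell, so each library stands for 1 clone and a difference between genotypes holds differences between clones as well. The columns of the EB libraries carry the stage and a clone code (D4, E14, E2, E3, H7 and H9) but no genotype, and no genotype was read from expression. KO was therefore compared with WT in mESCs only, EB libraries were compared by stage and described by clone code, and within a stage of EBs genotype and clone cannot be told apart. The code E14 is also part of the name of the parental line, and what else sets that clone apart is not stated.

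During gastrulation, epiblast cells that leave pluripotency ingress through the primitive streak and become mesoderm or definitive endoderm. Nodal, WNT and FGF signals induce the streak, where T-box and homeobox transcription factors are switched on in overlapping domains, and these genes are the customary readout of mesoderm entry in EBs. In bulk RNA from EBs, a low level of such a gene can come from fewer cells that express it or from less RNA per cell, which cannot be told apart here.

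The members lay on 8 chromosomes (positions on GRCm38). T spanned chr17:8434423-8442496 and Eomes chr9:118478212-118486132, both on the plus strand. The promoters of this T-box pair are shown because both genes rose at each stage and had the highest median levels per kb of exon among the members in 96 hr EBs. Each run is the 250 bases before the RefSeq start of the gene, 5′ to 3′ on the plus strand of GRCm38.p6, at chr17:8434173-8434422 for T and chr9:118477939-118478188 for Eomes, and capitals mark matches to the motifs searched.
T: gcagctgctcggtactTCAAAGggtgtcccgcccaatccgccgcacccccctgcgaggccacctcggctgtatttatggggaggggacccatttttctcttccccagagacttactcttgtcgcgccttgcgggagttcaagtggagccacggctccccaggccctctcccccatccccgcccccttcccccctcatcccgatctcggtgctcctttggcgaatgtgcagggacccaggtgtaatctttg
Eomes: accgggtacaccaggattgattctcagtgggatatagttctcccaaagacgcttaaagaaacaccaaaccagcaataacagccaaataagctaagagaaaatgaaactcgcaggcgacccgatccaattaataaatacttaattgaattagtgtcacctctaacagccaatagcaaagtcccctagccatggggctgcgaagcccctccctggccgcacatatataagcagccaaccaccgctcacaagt
The motifs were searched on both strands, and none of the matches in members' windows overlapped another. For TCF/LEF, the DNA-binding partners of β-catenin, the letters were CTTTGA. For T-box factors they were TCACACC, for FOXH1, a SMAD partner, AATNCACA, and for the TATA box TATAAA. RefSeq windows were at hand for 8 of the 10 members, and none for Mixl1 and Fgf8. CTTTGA was found in 2 of 8 windows (T and Mesp1), against 13.8% of all 32851 windows. Of the 250 bases of the Mesp1 window, 198 lie inside the gene as annotated in GENCODE. The matches in Mesp1, within 72 bases of the RefSeq start, lie in that part and not upstream of the annotated gene. In T it lay on the minus strand, 229 to 234 bases before the start. The TATA letters were found in 1 of 8 (Gsc), against 12.4%, and those for T-box factors and FOXH1 in 0 of 8, against 3.33% and 3.18%. A match describes letters in this window and is not a bound site.

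Library totals ranged from 29423089 to 40904247 counts in mESCs, from 28287582 to 33169091 in 48 hr EBs and from 30570857 to 36340056 in 96 hr EBs, so that 3 counts correspond to 0.0736 to 0.111 CPM (counts scaled to a common library size), the lowest level counted as measured. Nfkbia checked the labels in mESCs. It stood at 34.2, 35.1 and 25.3 CPM in WT replicates 1 to 3 and between 9.44 and 10.2 CPM in the KO libraries (log2 fold change -1.67, SE 0.14, adjusted p = 0.00489, edgeR's quasi-likelihood test). Naive and core pluripotency markers summed to between 3500 and 4510 CPM in the 6 mESC libraries. Endoderm markers (10 genes) summed to 270 and 356 CPM in KO replicates 1 and 3, against 52.9 CPM in KO replicate 2 and 62.6 to 74.3 CPM in WT. Lama1 carried most of the 2 high sums, at 199 and 247 CPM. Of the 8 endoderm markers tested, 1 was called higher in KO and 0 lower. This was Hnf4a (1.84, adjusted p = 0.00712, edgeR), at 9.83 to 11.1 CPM in all 3 KO libraries and 1.98 to 3.69 CPM in WT. Primed epiblast markers were lower in KO, with 4 of 8 called lower and 0 higher (all genes 1.69% and 3.09%) and sums of 559 to 627 CPM in KO and 801 to 1210 CPM in WT, which did not overlap. The part of either marker list in the mESC differences below, that of Wnt3 included, was not tested.

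mESCs. Before differentiation 9 of the members had at most 42 counts in any library, Eomes had 136 to 300, and 1 of the 10 differed between genotypes. Wnt3, a WNT ligand required for streak formation, was lower in KO mESCs, and the other 9 members did not pass the test. Wnt3 had 22, 18 and 40 counts in WT replicates 1 to 3, or 0.746, 0.591 and 1.32 CPM. In KO replicates 1 to 3 it had 7, 9 and 12 counts, all under the lowest WT library. The log2 fold change was -1.80 (SE 0.41, adjusted p = 0.0451, edgeR quasi-likelihood fit, adjusted by Benjamini-Hochberg over 21843 genes). In an exact two-sided permutation test of 3 against 3 libraries p was 0.1, the smallest such a design allows. Of all genes tested, 1.69% were called lower and 3.09% higher, and 1 member was called lower and 0 higher, while groups without overlap were found for 13.9% of genes on the lower side (1 member) and 15.1% on the higher side (0 members). The call on Wnt3 was lost when any 1 library other than KO replicate 2 was left out, with adjusted p between 0.0907 and 0.185 and a log2 fold change between -1.41 and -2.04, and on the normalized log2 values (adjusted p = 0.0935), while DESeq2 gave adjusted p = 0.0122.

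Eomes, a T-box factor that acts ahead of both mesoderm and definitive endoderm, was the member with the highest level in mESCs, also per kb of exon. It stood at 6.41, 4.46 and 4.98 CPM in WT replicates 1 to 3. In KO replicates 1 to 3 it stood at 8.57, 5.59 and 8.18 CPM, and the groups overlapped. The log2 fold change was 0.49 (SE 0.22, adjusted p = 0.239, edgeR), and it passed the test only without KO replicate 2 (0.67, adjusted p = 0.0137). The 2 KO libraries above every WT library in Eomes were replicates 1 and 3, the libraries with the endoderm marker sums given above. T had between 6 and 12 counts in each of the 6 mESC libraries, Evx1 between 11 and 29, Mixl1 between 16 and 42, Wnt3a between 15 and 25 and Fgf8 between 8 and 24. Mesp1, Gsc and Lhx1 had at most 9 counts in any mESC library and 3 or fewer in most, too few for a difference to be detected. Gsc lies on chromosome 12 in a window of 10 Mb whose 51 expressed genes differed from the WT mean by a median of -0.37, -0.34 and -0.40 (log2) in KO replicates 1 to 3, a shift that none of the other members' windows showed beyond 0.17 in size (log2).

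**Figure D1:**
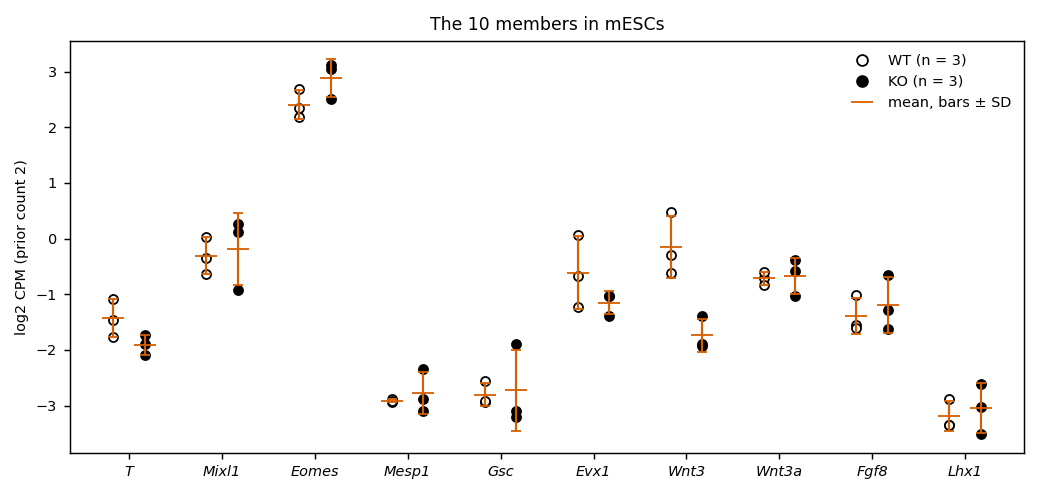
Level of each member in the 6 mESC libraries, as log2 CPM with a prior count of 2 on the vertical axis; open points are WT and filled points KO, and the orange bars give the mean ± SD of each group (n = 3). Wnt3 is the member whose WT and KO points do not overlap, with KO at 0.205 to 0.327 CPM and WT at 0.591 to 1.32 CPM, and Eomes lies above the other members.

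48 hr EBs. The members called higher at 48 hr in the main fit were T, Fgf8, Lhx1, Wnt3 and Eomes. With all 6 mESC libraries as the reference, 5 of the 10 members were called higher and 0 lower, against 17.5% and 16.1% of 23931 genes. Groups without overlap were found for 2 members on the higher side (T and Fgf8) and 1 on the lower side (Mesp1), against 9.13% and 8.53% of genes. The largest fitted rises were those of T (log2 fold change 3.93, SE 0.96, adjusted p = 0.00627, edgeR) and Fgf8 (3.72, SE 0.55, adjusted p = 0.000181). The median of the 10 members was 1.08 (log2), against -0.0011 over all genes tested. The calls of T, Eomes, Fgf8 and Lhx1 held when any 1 of the 12 libraries was left out, and that of Wnt3 did not. They depended on the fit, since 1 fit over the 18 libraries called only 1 member.

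96 hr EBs. From 48 hr to 96 hr, 9 of the 10 members were called higher and 0 lower, against 12.8% and 9.48% of 23836 genes, with fitted log2 fold changes from 2.94 (Fgf8) to 7.54 (Mesp1) and a median of 4.80 over the 10, against 0.01 over all genes. Wnt3a, at 2.64 (SE 0.99, adjusted p = 0.0722, edgeR), missed the threshold. These rises were not shared by all libraries. The 3 highest libraries were E14, H7 and H9 for 10 of 10 members, and in D4, E2 and E3 no member was more than 6.07-fold above its 48 hr level. The 48 hr and 96 hr groups therefore overlapped for every member, so that 0 members stood apart in either direction, against 4.43% (higher) and 5.04% (lower) of genes. The share of all genes with the same 3 highest libraries was not counted. Members share libraries, so their common order describes these libraries and is not a result about the members. Against mESCs, 9 members were called higher and 0 lower (23.3% and 20% of 24174 genes), and 6 of them did so without overlap (T, Mixl1, Eomes, Wnt3, Fgf8 and Lhx1), against 11.9% of genes, with 0 on the lower side, against 12.1%. The comparisons among stages share libraries.

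**Figure D2:**
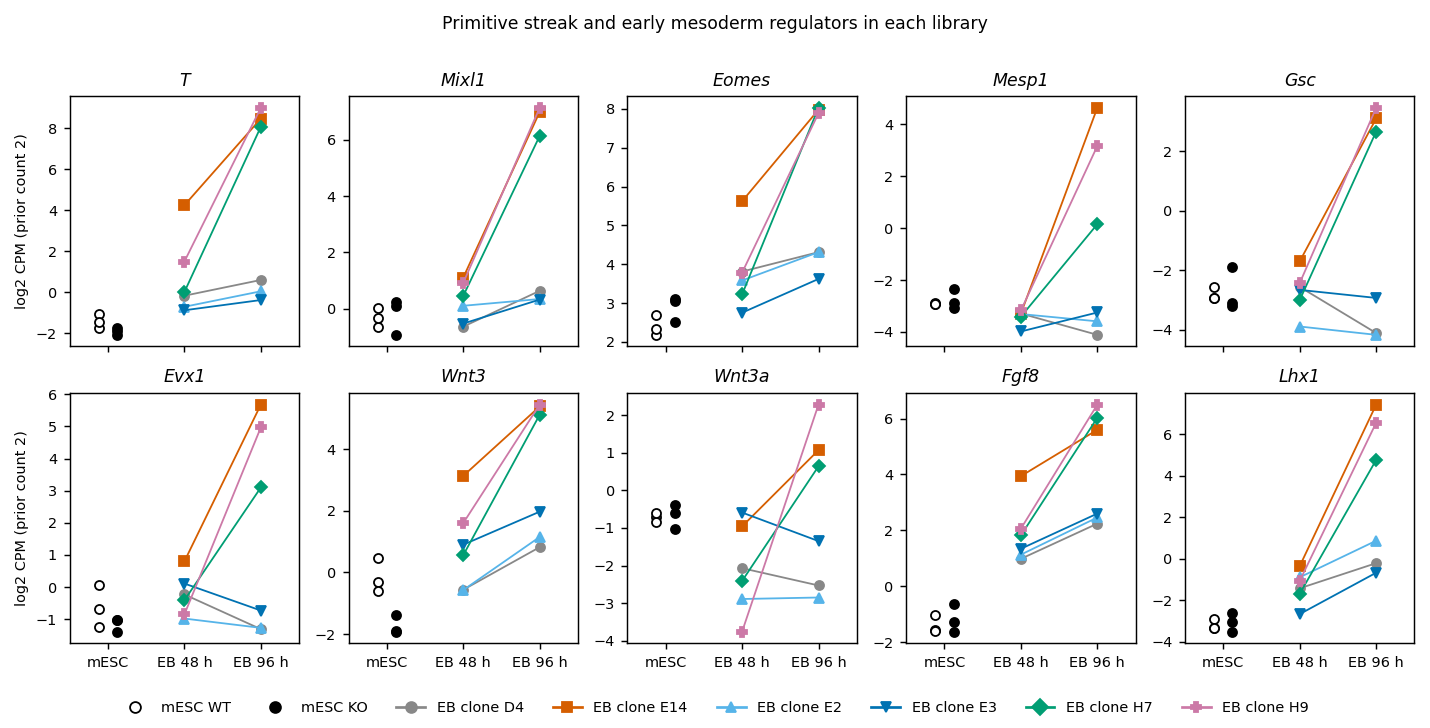
Level of each member in every library, as log2 CPM with a prior count of 2 on the vertical axis, against stage; open and filled circles are WT and KO mESC libraries, and lines join the 48 hr and 96 hr libraries with the same clone code. In 96 hr EBs the libraries of clones E14, H7 and H9 lie above those of D4, E2 and E3 in all 10 panels.

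The T-box factors. T, which drives mesoderm formation and movement through the streak, was at 0.176 to 0.407 CPM in mESCs. In 48 hr EBs its lowest, median and highest libraries were at 0.475, 0.878 and 18.8 CPM, with E14 highest and H9 next at 2.74 CPM. Every 48 hr library lay above every mESC library (exact two-sided permutation p = 0.00216, the smallest that 6 against 6 allows). Without E14 the rise from mESCs to 48 hr fell to 2.05 (log2, adjusted p = 0.0039, edgeR). In 96 hr EBs T reached 510 CPM in H9, 354 in E14 and 268 in H7. It was at 1.45, 0.97 and 0.708 CPM in D4, E2 and E3. The libraries thus differed by 721-fold within 1 stage, and the fitted rise from 48 hr of 5.58 (SE 1.71, adjusted p = 0.0353, edgeR) had an exact permutation p of 0.11.

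Eomes had a different start, since it was already measured in mESCs at 4.46 to 8.57 CPM. In 48 hr EBs it was at 6.68 to 49.0 CPM with a median of 12.8, and E14, at 49.0 CPM, stood far above D4, the next library, at 13.9 CPM. The call at 48 hr (log2 fold change 1.45, SE 0.42, adjusted p = 0.0166, edgeR) remained without E14 with a value of 0.80. In 96 hr EBs Eomes was at 262, 252 and 236 CPM in H7, E14 and H9, which differed little. It was at 19.8, 19.7 and 12.2 CPM in D4, E2 and E3. The rise from 48 hr was 2.97 (SE 0.85, adjusted p = 0.0264, edgeR; exact permutation p = 0.0563). Of the exon bases of Eomes, 2.84% (118 bases) overlap the antisense gene Gm33460, and reads of the pair could not be told apart if counting ignored strand.

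The homeobox factors. Mixl1, a paired-type factor of the streak that shapes mesendoderm, was at 0.47 to 1.14 CPM in mESCs and at 0.578 to 2.09 CPM in 48 hr EBs, and these groups overlapped (log2 fold change 0.59, SE 0.34, adjusted p = 0.207, edgeR). At 96 hr it was at 140, 126 and 70.0 CPM in H9, E14 and H7. In D4, E2 and E3 it was at 1.5, 1.22 and 1.21 CPM, inside the 48 hr range. The rise from 48 hr was 5.55 (SE 1.27, adjusted p = 0.0103, edgeR), a call that held when any 1 of the 12 libraries was left out (exact permutation p = 0.0649).

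Lhx1, a LIM-homeobox factor needed for head organizer and anterior mesendoderm, was called higher at both steps. It had 1 to 4 counts in mESC libraries and 3 to 21 counts in 48 hr EBs, or 0.095 to 0.718 CPM (log2 fold change 2.58, SE 0.49, adjusted p = 0.0011, edgeR). By 96 hr Lhx1 was at 172 CPM in E14, 93.7 in H9 and 27.0 in H7. E2, D4 and E3 were at 1.77, 0.809 and 0.577 CPM. Lhx1 was the member with the clearest step from 48 hr (7.07, SE 1.48, adjusted p = 0.00683, edgeR), its call held without any 1 of the 12 libraries, and its exact permutation p of 0.00433 was the lowest of the 10. All 6 clones were higher at 96 hr than at 48 hr.

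Gsc, the goosecoid factor of the organizer, had 0 to 9 counts in every mESC and 48 hr library (0.055 on the log2 scale, SE 0.60, adjusted p = 0.955, edgeR), and a difference was not detectable at this depth. By 96 hr Gsc was at 10.9, 8.52 and 6.25 CPM in H9, E14 and H7, from 365, 325 and 197 counts. E3 had 3 counts, and D4 and E2 had 0, which at 3 counts allows up to 0.0867 and 0.0832 CPM. The fitted rise of 5.39 (SE 1.49, adjusted p = 0.024, edgeR; exact permutation p = 0.173) starts from libraries at or near 3 counts, so its size rests on few counts at 48 hr.

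Evx1, an even-skipped homolog of the posterior streak, was at 0.323 to 0.983 CPM in mESCs and at 0.438 to 1.68 CPM in 48 hr EBs (0.71, SE 0.37, adjusted p = 0.157, edgeR). By 96 hr Evx1 was at 51.2 CPM in E14, 31.4 in H9 and 8.50 in H7. It was at 0.551, 0.36 and 0.347 CPM in E3, E2 and D4, and each of these 3 clones was lower at 96 hr than at 48 hr, by 0.544-, 0.823- and 0.443-fold. The rise over all libraries was 4.21 (SE 1.19, adjusted p = 0.0262, edgeR; exact permutation p = 0.182), and with the clone code as a replicate block it was 2.49 (SE 1.27, adjusted p = 0.167) and no longer called. The antisense gene Evx1os overlaps 2.54% (73 bases) of its exon bases, with the same limit on strand.

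Mesp1. This bHLH factor marks nascent mesoderm and the earliest heart and vessel progenitors. Its reads were the fewest of the members before 96 hr, with 2 to 6 counts in mESC libraries and 0 or 1 count in each 48 hr library. At 96 hr it had 941 counts in E14, 297 in H9 and 33 in H7, or 24.7, 8.89 and 1.05 CPM. E3, E2 and D4 had 2, 1 and 0 counts. E14 thus stood far above H7, while T and Eomes were near each other in these clones. The fitted change from mESCs to 48 hr, -1.44 (SE 0.50, adjusted p = 0.0535, edgeR), is set by a few counts per library. The size of the fitted rise to 96 hr, 7.54 (SE 1.86, adjusted p = 0.0143, edgeR; exact permutation p = 0.102), rests on 0 or 1 count per library at 48 hr.

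The ligands. Wnt3 was at 0.205 to 1.32 CPM in mESCs and at 0.606 to 8.69 CPM in 48 hr EBs, with a median of 1.61. E14 was the highest at 48 hr, followed by H9 at 2.96 CPM. The call at 48 hr (2.25, SE 0.69, adjusted p = 0.0222, edgeR) was lost without E14 (1.39, adjusted p = 0.0635). In 96 hr EBs Wnt3 was at 43.4, 41.5 and 34.5 CPM in H9, E14 and H7. In E3, E2 and D4 it was at 3.86, 2.16 and 1.71 CPM, each above the same clone at 48 hr, by 2.14-, 3.57- and 2.79-fold. The rise from 48 hr was 3.02 (SE 0.95, adjusted p = 0.0392, edgeR; exact permutation p = 0.0541).

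Wnt3a, a WNT ligand that maintains the caudal streak and its T-positive progenitors, had the lowest median level per kb of the members in 96 hr EBs. It was at 0.436 to 0.704 CPM in mESCs, from 15 to 25 counts. In 48 hr EBs it had 0 to 19 counts, with E3 highest at 0.602 CPM and the median at 0.148 CPM (-1.23, SE 0.54, adjusted p = 0.0968, edgeR). This difference passed the test without clone E3 (-1.78, adjusted p = 0.0155). By 96 hr Wnt3a was at 4.79 CPM in H9, 2.04 in E14 and 1.49 in H7. E3, D4 and E2 were at 0.341, 0.116 and 0.0832 CPM, under every mESC library, and against mESCs Wnt3a did not pass the test (1.39, SE 0.76, adjusted p = 0.159).

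Fgf8, an FGF ligand that cells need in order to move away from the streak, rose at each step and was higher at 96 hr than at 48 hr in each clone. It was at 0.264 to 0.589 CPM in mESCs and at 1.90 to 15.3 CPM in 48 hr EBs, with E14 highest and H9 next at 4.11 CPM. No 48 hr library overlapped the mESC libraries (exact two-sided permutation p = 0.00216), and without E14 the rise was 2.93 (log2). By 96 hr Fgf8 was at 90.5, 65.5 and 48.6 CPM in H9, H7 and E14, and here E14 was the lowest of the 3. E3, E2 and D4 were at 6.01, 5.43 and 4.65 CPM, which is 2.43-, 2.56- and 2.44-fold their 48 hr levels. The rise from 48 hr was 2.94 (SE 0.86, adjusted p = 0.0288, edgeR; exact permutation p = 0.0433).

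**Figure D3:**
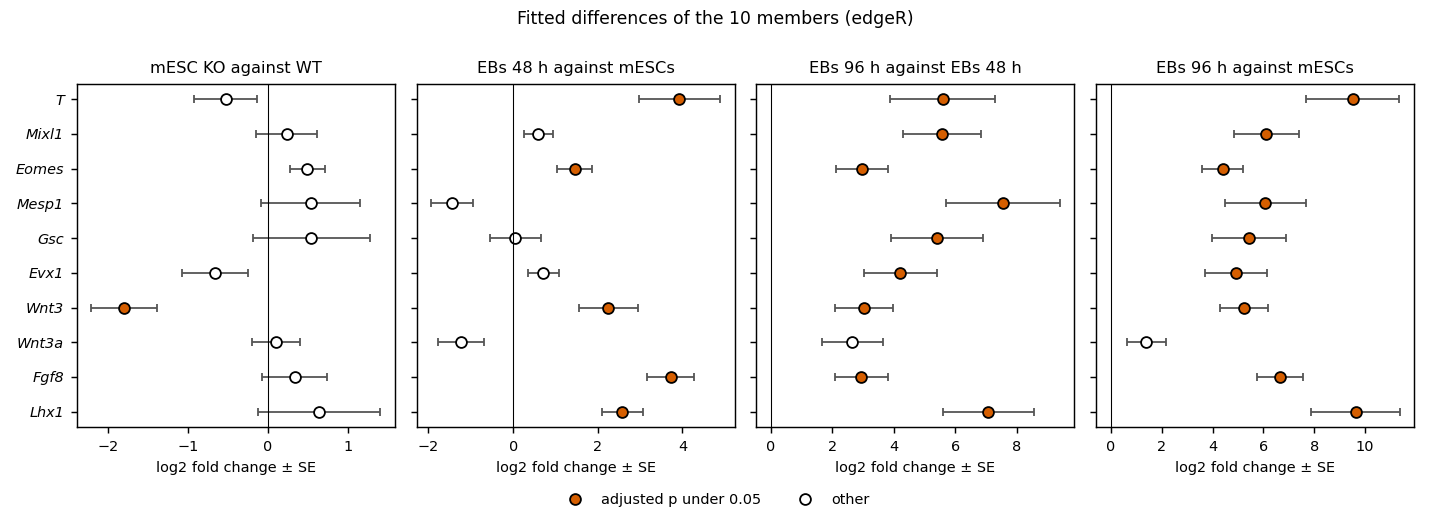
Fitted log2 fold change of each member (points, with bars of ± SE on the horizontal axis, whose range differs between panels) in the 4 comparisons; filled points passed 0.05 after adjustment over all genes (edgeR). The filled points number 1, 5, 9 and 9 from left to right, and Wnt3a is the open point in both 96 hr panels.

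With the clone code as a replicate block, which the exact permutation tests leave out, the fit from 48 hr to 96 hr called 8 of the 9 members, all but Evx1. Over all genes that fit also called more than the fit without the block, with the counts given under the processing settings below. T, Mixl1, Eomes, Wnt3, Fgf8 and Lhx1 were higher at 96 hr in 6 of 6 clones. Without the block, calls from 48 hr to 96 hr depended on single libraries. Mixl1, Mesp1 and Lhx1 kept their calls when any 1 of the 12 libraries was left out, and the other 6 called members did not. The number of members called ranged from 3 (without D4, E2 or H7 at 48 hr, or without H9 at 96 hr) to 10 (without D4, E2 or E3 at 96 hr), and was 4 without H9 and 5 without E3 at 48 hr, and 5 without E14 or H7 at 96 hr. The highest adjusted p of any of these 9 members in such a fit was 0.0841, for Wnt3. On the normalized log2 values limma called 0 members, with adjusted p from 0.0682 (Lhx1) to 0.17 (Evx1), whereas DESeq2 called 10. The shares of all genes called by limma and DESeq2 are not given here, so these counts show dependence on the fit only.

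Within a clone there is no replicate and hence no test. From 48 hr to 96 hr the 10 members were all higher in E14, H7 and H9, with a median of 24.6-, 26.4- and 71.2-fold (a 48 hr level under 3 counts set to 3 counts). In D4, E2 and E3 the medians were 2.10-, 1.80- and 1.86-fold over the 8, 7 and 8 members above that floor, and no member passed 10-fold. E14 was already high at 48 hr: it was the highest 48 hr library for 8 of the 10 members, and 6 of its members passed 10-fold from 48 hr to 96 hr, against 10 in H7 and 10 in H9. The shares of all genes that were highest in E14 or passed 10-fold within a clone were not counted, so these counts are descriptive. The 10 members together summed to 97.0 CPM in E14 at 48 hr and to 13.9 to 26.4 CPM in the other 48 hr libraries. At 96 hr they summed to 1081 CPM in E14, 1170 in H9 and 744 in H7. The sums in D4, E2 and E3 were 30.4, 31.7 and 25.6 CPM.

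The ratio of the highest to the lowest of the 6 libraries of 96 hr EBs ran from 19.5-fold (Fgf8) to 721-fold (T), with Eomes at 21.4-fold, Wnt3 at 25.5-fold and Lhx1 at 297-fold. For Mesp1 and Gsc the lowest libraries had 0 counts and were set to 3 counts, so their 284- and 126-fold are lower bounds, and the 57.6-fold of Wnt3a rests on a lowest library with 3 counts. As background, 6.94% of the 14511 genes with at least 50 counts in a 96 hr library passed 10-fold. That filter keeps a gene by its highest library, and members that are low in D4, E2 and E3 passed it only through E14, H7 and H9, so nothing is read from the members' place among these genes. In 48 hr EBs the libraries differed by 39.7-fold for T and 14.3-fold for Wnt3, and in mESCs those of Eomes differed by 1.92-fold.

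**Figure D4:**
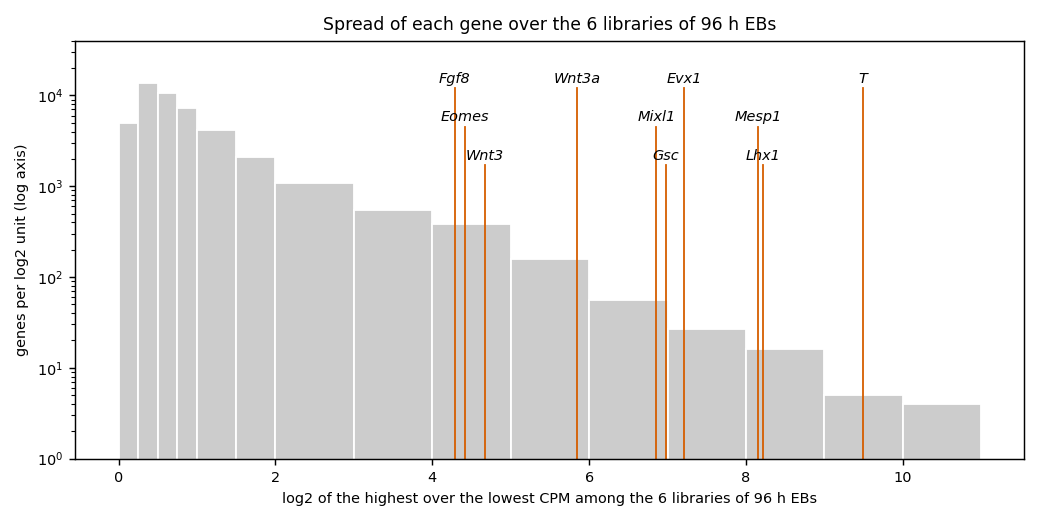
Spread of genes over the 6 libraries of 96 hr EBs: the horizontal axis is the log2 ratio of the highest to the lowest CPM, the grey bars give the number of genes per log2 unit (log axis; the last bar holds all genes past 10 log2 units), and orange lines mark the 10 members. Genes were kept by their highest library, through which the members passed, and the members run from Fgf8 at 19.5-fold to T at 721-fold.

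Compared per kb of exon, the order of the members changed between stages. In mESCs Eomes was first with a median of 1.45 CPM per kb (1.07 to 2.06 over the libraries), above every library of Mixl1, the second at 0.366 (0.205 to 0.499), and Lhx1 was last at 0.0124. In 48 hr EBs Eomes (3.08) and Fgf8 (2.20) led, and their ranges overlapped. In 96 hr EBs the medians per kb were 58.3 for T, 30.8 for Eomes, 20.2 for Fgf8 and 15.6 for Mixl1, but the libraries spread widely around them and neighbours in the order overlapped. By the highest library the order was T (220 CPM per kb), Fgf8 (67.1), Eomes (63.0), Mixl1 (61.0), Lhx1 (42.1), Mesp1 (19.3), Evx1 (17.8), Wnt3 (14.1), Gsc (8.62) and Wnt3a (1.74).

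The signals and receptors that act upstream of the members (25 genes of the Nodal, BMP, WNT and FGF pathways) had a smaller median change than the members from 48 hr to 96 hr, at 0.40 (log2) against 4.80, with 0.01 over all genes. In mESCs 0 were called higher and 2 lower in KO (all genes 3.09% and 1.69%), and both differed by more than any member: Fgf5, an FGF of the primed epiblast (-4.44, SE 0.57, adjusted p = 0.00832, edgeR), and Lef1, a TCF/LEF factor (-3.13, SE 0.36, adjusted p = 0.00626). From mESCs to 48 hr EBs 9 were called higher and 4 lower (all genes 17.5% and 16.1%), so that the count of lower genes was near the share over all genes, led by Fgf5 (3.85), Lef1 (2.61) and Foxh1 (1.51), and by Bmp4 (-1.18), the Nodal co-receptor Tdgf1 (-0.96) and Fgf4 (-0.59). From 48 hr to 96 hr 10 were called higher and 1 lower (all genes 12.8% and 9.48%), led by Wls, the carrier that exports WNT ligands (2.79, SE 0.79, adjusted p = 0.0263, edgeR), the Nodal effector Smad3 (1.14) and the receptor Acvr1b (0.80), against Tcf7l1 (-0.42). Smad3 and Acvr1b rose without overlap of the groups. Wls was at 121, 78.6 and 48.5 CPM in E14, H9 and H7 and at 6.51 to 10.2 CPM in D4, E2 and E3. Nodal, named after its values were seen as the ligand that induces the streak, was at 46.7 to 119 CPM in the 96 hr libraries, lowest in E14 and highest in E3.

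Of 28 genes expressed in the streak and nascent mesoderm, 25 were tested in mESCs, and 1 of these was called higher in KO, near the 3.09% over all genes (Cdx1, a caudal homeobox gene, 1.70, SE 0.31, adjusted p = 0.0242, edgeR) and 0 lower. From mESCs to 48 hr EBs 9 were called higher and 1 lower (all genes 17.5% and 16.1%), led by Wnt8a (3.47), Sp8 (3.39) and Nkx1-2 (3.17), with Fgf17 lower (-1.86). From 48 hr to 96 hr 14 were called higher and 0 lower (all genes 12.8% and 9.48%). The largest rises were those of the apelin receptor Aplnr (9.78, SE 2.24, adjusted p = 0.0104, edgeR), the VEGF receptor Kdr (5.62, SE 1.47, adjusted p = 0.0189) and the WNT enhancer Rspo3 (5.42, SE 1.45, adjusted p = 0.0204), all with overlapping groups. Aplnr was at 209 CPM in E14, 82.5 in H9 and 17.4 in H7, and at or under 0.116 CPM in D4, E2 and E3. Kdr was at 315 CPM in E14, 24.7 in H9 and 6.79 in H7, and at 0.42 to 2.83 CPM in D4, E2 and E3. Like Mesp1, both were far higher in E14 than in H7. The median over the 28 was 2.55 (log2), against 0.01 over all genes.

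Of 15 secreted antagonists, 14 were tested in mESCs, and 0 were called higher and 2 lower in KO (all genes 3.09% and 1.69%): Notum, which inactivates WNT ligands (-1.01, SE 0.22, adjusted p = 0.0403, edgeR), and Sfrp2 (-0.83, SE 0.18, adjusted p = 0.0382). From mESCs to 48 hr EBs 2 were called higher (Sfrp2, 1.53, and Lefty1, 0.97) and 3 lower (Nog, -1.99, Sfrp1, -0.87, and Spry2, -0.51), near the shares over all genes (17.5% and 16.1%). From 48 hr to 96 hr 4 were called higher and 2 lower (all genes 12.8% and 9.48%). Cer1, an inhibitor of Nodal, BMP and WNT ligands, was the largest of these (8.35, SE 1.84, adjusted p = 0.00878, edgeR), followed by Frzb (5.67) and Dkk1 (3.67), while Notum (-1.32) and Spry4 (-0.52) fell. Cer1 was at 103, 49.9 and 14.9 CPM in E14, H9 and H7, and at 0.0867 to 0.305 CPM in D4, E2 and E3. The median over the 15 was 0.32 (log2).

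Markers of other cell states moved between the same libraries. From mESCs to 96 hr EBs, 11 of 12 naive and core pluripotency markers were called lower and 8 of 8 primed epiblast markers higher (all genes 20% lower and 23.3% higher). From 48 hr to 96 hr 3 of 12 naive and core markers were called lower and 0 higher (all genes 9.48% and 12.8%). Among the 8 primed markers 1 was called higher (Cldn6, 0.89) and 1 lower (Dnmt3a, -1.02), near these shares. Within the 96 hr EBs the naive and core markers summed to 728 CPM in E14, 1100 in H9 and 1330 in H7. In D4, E2 and E3 they summed to 1760, 1540 and 1730 CPM. Pou5f1, a core factor, weighed most in these sums, at 416 to 826 CPM over the 96 hr libraries. The sums therefore do not describe the list as a set. Endoderm markers summed to 223 CPM in E14, 107 in E2, 63.3 in H9 and 26.7 to 52.6 CPM in the other 3 libraries, with Sox17 at 38.2 CPM in E14 and 8.0 in H9. Gata4, which is also in the streak and nascent mesoderm list, carried more of the sum in E14, at 89.3 CPM. Dab2 and Lama1 were highest in E2, at 42.9 and 42.4 CPM. From 48 hr to 96 hr 1 of 10 endoderm markers was called higher and 0 lower, near the shares over all genes (12.8% and 9.48%). Trophoblast markers summed to 845 CPM in E14, 274 in H9 and 93.0 to 175 CPM in the other 4 libraries. The keratins Krt8 and Krt18 carried most of the sum in E14, at 473 and 258 CPM, and Hand1, which mesoderm also expresses, was at 87.1 CPM there and at most 2.28 CPM in the other 96 hr libraries. Elf5 was at most 0.21 CPM in any 96 hr library, so the trophoblast sums do not describe the list as a set. From 48 hr to 96 hr 3 of 9 trophoblast markers were called higher and 0 lower (all genes 12.8% and 9.48%). Neuroectoderm markers (1 of 10 called higher from 48 hr to 96 hr, near the 12.8% over all genes) summed to 231 CPM in H9 and 201 in H7. They summed to 108 to 128 CPM in the other 4 libraries, E14 included. Nes alone carried most of the sum in H9, at 213 CPM, so these sums do not describe the list as a set. Fibroblast markers (2 of 8 tested called higher, all genes 12.8%) summed to at most 49.5 CPM. The part of these cell types in the members' levels was not tested.

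For each member the 3 genes with the most similar profile were those with the smallest root mean square difference of centred log2 CPM over the 18 libraries, among 13163 genes compared. They were 23 distinct genes, of which 6 belonged to the lists above, and the differences ran from 0.406 to 1.24 (log2), against SDs of the members over the libraries of 1.5 to 3.62. Evx1 was closest to its antisense gene Evx1os (0.406), then Slc44a5 and Cdx2, and Eomes to Prox1 (0.479), Wnt5b and Cdx2. T was closest to Pcdh7 (0.793), Cdh11 and Aplnr, and Lhx1 to Frzb (0.926), Pcdh7 and Rspo3. Mixl1 was closest to Rspo3 (0.714), Cdh11 and Frzb, Gsc to Slc44a5 (0.73), Evx1os and Zfp703, and Mesp1 to Klhl6 (0.718), Gm45889 and Unc5c. Wnt3 was closest to Dclk1 (0.601), Antxr2 and Piezo2, Wnt3a to Heg1 (0.784), Sdc3 and F5, and Fgf8 to Nkx1-2 (0.772), Rtl8c and Sp8. Among the members themselves the closest pair was Gsc and Evx1 (0.689) and the farthest T and Wnt3a (3.03).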

How the data were processed

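Total RNA of 18 libraries was sequenced in bulk (paired-end). The authors trimmed reads with Trim Galore 0.6.6, aligned them with STAR 2.7.8 to the mouse genome and counted reads per gene with featureCounts (Subread 2.0.1), and the strand setting is not given in the sources used here. The deposited tables hold whole-number counts per gene and, separately, log2 values that the authors normalized with DESeq2 1.38.3 by its variance-stabilizing transformation. Symbols and positions were taken from GENCODE (GRCm38), which named 55227 of the 55487 genes.

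Genotype was read from the labels of the mESC libraries. EB columns carried a stage and a clone code but no genotype, so KO was not compared with WT in EBs. In each comparison, genes with at least 10 counts over its libraries were tested with edgeR 4.0.16 (TMM, robust quasi-likelihood test, R 4.3.3) and Benjamini-Hochberg adjustment over all genes tested, and a gene was called at an adjusted p under 0.05. Levels are CPM with TMM factors over the 18 libraries, and per kb they are divided by exon length. Single members were also compared by exact two-sided permutation tests. The count test was tested on simulated data first. Alternatives were DESeq2 1.42.0, other size factors and filters, limma 3.58.1 on the deposited log2 values, blocks, an offset per 10 Mb window, 1 fit over the 18 libraries, and leaving out each library. No pair of libraries of a stage agreed within sampling noise (lowest chi-square per degree of freedom 5.47). Nothing in the mESC labels says that equal replicate numbers share a culture, and their deviations correlated by -0.16, 0.00031 and -0.023. EB libraries with the same clone code come from the same clone and correlated by 0.38 to 0.73, so the codes pair them, although E14 at 48 hr correlated most with H7 at 96 hr and the other 5 clones with their own code.

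The genes named are Nfkbia, the 10 members, the 3 largest called changes in each direction per list and comparison, and the 3 nearest profiles per member among genes whose counts averaged 50 or more. Nodal, and some marker genes that carried or departed from a summed level, were also named after their values were seen. The members and lists were chosen with earlier results of these data known.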

Additional observations from a re-analysis of the deposited data

Results flagged for a closer look

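In 20 groups of 6 libraries (each member in each EB stage) the highest or lowest library was compared with its neighbour. The measure was the gap in log2 CPM divided by the range of the group in log2 CPM. Chance sets apart about 1 in 20 groups, and 3 were found, but members share libraries and the groups are not independent. Eomes in 48 hr EBs stood apart in clone E14, at 49.0 CPM with the next library at 13.9 CPM (gap 0.632 of the range). Fgf8 in 48 hr EBs stood apart in the same clone, at 15.3 CPM with the next at 4.11 CPM (gap 0.634). Mesp1 in 48 hr EBs stood apart in clone E3, at 0 CPM with the next at 0.0313 CPM (gap 0.874), which is a difference between 0 counts and 1 count.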

How the results depend on the processing

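Over single members and settings, 575 values kept their direction and side of the threshold, 73 lost the call, 9 gained it and 10 turned sign, and the calls of 96 hr EBs against mESCs held in every fit that left out 1 library. In mESCs the number of genes called went from 1046 to 2146 with DESeq2, 469 with limma and 631 with the replicate block, limma called 0 members, and leaving out 1 library gave 0 to 2 members and 0 to 3736 genes. With the replicate block Wnt3 was at -1.77 (adjusted p = 0.0464, edgeR). For 48 hr EBs against mESCs, 1 fit over the 18 libraries called 1 member, and leaving out 1 library gave 4 to 6 members and 7016 to 8593 genes. For 96 hr against 48 hr, 4 members were called with no filter and 0 with limma, and leaving out 1 library gave 3 to 10 members and 3264 to 7141 genes. Paired by clone code, this comparison called 8 members and 8994 genes, against 5308 without the replicate block. For 96 hr EBs against mESCs, leaving out 1 library gave 9 members each time and 9418 to 11464 genes. Signs turned in mESCs for Wnt3a (-0.054, without KO replicate 1), Gsc (-0.42) and Fgf8 (-0.041, both without KO replicate 2) and Mixl1 (-0.00087, without KO replicate 3), and at 48 hr for Gsc with limma (-0.01), without WT replicates 2 and 3 (-0.025 and -0.032), without KO replicates 1 and 3 (-0.05 and -0.066) and without clone E14 (-0.38). Leaving out 1 library, these ranged up to 0.27 for Wnt3a, 0.85 for Gsc, 0.59 for Fgf8 and 0.52 for Mixl1 in mESCs, and up to 0.53 for Gsc at 48 hr. The cause was not tested. Counts at or under 3 in most libraries limit Mesp1 and Gsc before 96 hr and Lhx1 in mESCs. Wnt3a had 0 to 19 counts in the 48 hr libraries.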

Other observations

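At 96 hr the libraries of clones H7, E14 and H9 lay above those of E3, E2 and D4 for each member, and the size of the gap varied. It was widest for T, at 268, 354 and 510 CPM in H7, E14 and H9 and at 0.708, 0.97 and 1.45 CPM in E3, E2 and D4. The third highest library was 186-fold above the fourth for T and 4.37-fold for Wnt3a, the narrowest gap. No clustering was run, and no test was made between these libraries, since they are set apart by the measured values.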
